A study of Homo sapiens with 60 samples.

Results

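The loci described here are those of 5 genes of the BCL2 family, BCL2L11, BMF, BCL2L1, MCL1 and BCL2, in PC9 cells, an established human lung adenocarcinoma line. Members were all deposited peaks, whatever their reproducibility, that overlapped one of the genes or the 25 kb on either side of it (GRCh37). They numbered 473 of the 507426 peaks that 24 lists held on chromosomes 1 to 22 and X, and 455 of them were peaks of H3K27Ac, RAD21 or PDS5A. The other 18 were peaks of IgG, the control antibody. H3K27Ac is a histone mark of active promoters and enhancers, RAD21 is a core subunit of the cohesin ring, and PDS5A is a protein that binds cohesin and regulates its release from DNA.

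The peaks came from CUT&RUN, which releases and sequences the chromatin that an antibody has bound. The 3 genotypes were PC9 wild type (WT), a knockout of METTL7A (KO), and the same knockout background with METTL7A overexpressed (Rescue). Untreated cells of every genotype were set beside cells kept in osimertinib, an inhibitor of the EGFR kinase, at a dose that rose from 100 nM over 6 to 8 weeks. Every antibody, genotype and treatment had 2 samples, joined in 1 list, so the 48 samples used gave 6 lists per antibody. KO and Rescue cells thus share the loss of the endogenous gene, and the sources used here do not say whether the knockout is a single clone. The lists measure no expression, so the level of METTL7A in each genotype was not checked here.

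BCL2 family proteins decide at the mitochondrial outer membrane whether a cell enters apoptosis. BCL2, BCL2L1 (its long form is BCL-XL) and MCL1 are anti-apoptotic members that bind and hold back their pro-apoptotic relatives, while BCL2L11 (BIM) and BMF are BH3-only proteins that neutralise them. In lung cancer cells driven by mutant EGFR, BIM is known to accumulate when the receptor is inhibited and to take part in the cell death that follows.

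The promoters of 3 genes are shown because RAD21 had a reproducible peak over these gene starts, in different sets of lists. Each is the 250 bases before the RefSeq start (GRCh38.p14). Capitals mark matches on either strand to 5 motifs. They were the GC box (letters GGGCGG), the E-box (letters CACGTG), the forkhead motif (letters GTAAACA), the AP-1 motif (letters TGANTCA) and the CCAAT box, whose letters read ATTGG when on the other strand.
BCL2L11: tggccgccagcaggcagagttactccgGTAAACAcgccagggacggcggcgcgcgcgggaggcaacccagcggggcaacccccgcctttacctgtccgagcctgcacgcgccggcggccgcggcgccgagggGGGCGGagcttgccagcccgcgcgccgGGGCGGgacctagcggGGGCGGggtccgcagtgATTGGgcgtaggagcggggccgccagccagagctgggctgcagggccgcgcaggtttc
BMF: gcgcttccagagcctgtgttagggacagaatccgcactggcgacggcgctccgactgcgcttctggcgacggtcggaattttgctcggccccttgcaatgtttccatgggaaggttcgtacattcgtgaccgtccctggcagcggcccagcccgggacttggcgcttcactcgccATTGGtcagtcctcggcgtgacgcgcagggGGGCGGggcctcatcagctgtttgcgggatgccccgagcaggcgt
BCL2L1: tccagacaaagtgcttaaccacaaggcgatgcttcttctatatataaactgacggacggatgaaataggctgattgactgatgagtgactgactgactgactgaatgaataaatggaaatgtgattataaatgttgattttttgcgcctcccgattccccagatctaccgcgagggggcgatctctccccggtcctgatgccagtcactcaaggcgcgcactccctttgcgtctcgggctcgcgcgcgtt

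The table of promoters matched 4 of the 5 genes, and MCL1 had no entry. The BCL2L11 promoter held 3 GC boxes, 1 CCAAT box and 1 forkhead match, 223 bases before the start, with a GC content of 76.8%. The BMF promoter held 1 GC box and 1 CCAAT box at 65.2% GC. None of the 5 motifs was found in these windows of BCL2L1 (50% GC) or BCL2 (70.0% GC). Among all 35116 promoters of the table, 42.6% held the GC box, 32.0% the CCAAT box and 2.98% the forkhead letters, and the median GC content was 58.0%. A match is a description of letters only, and the RefSeq start need not be the outermost start used for the peaks.

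A peak is called reproducible below when its global IDR, the irreproducible discovery rate that measures how well its rank agrees between the replicates, was 0.05 or less. At the 5 loci 129 of the 455 peaks were reproducible, 28.4%, beside 30.8% of all peaks of these antibodies. The nearest peaks on either side of the limit were H3K27Ac at BCL2L1 in treated KO cells, inside at 0.04875, and RAD21 at MCL1 in untreated KO cells, outside at 0.05011. None of the 18 IgG peaks was reproducible, but 58 of the 129 reproducible peaks overlapped a deposited IgG peak of some condition (44.96%, beside 39.9% in the whole series). Whether that background contributes to them was not tested. The lists carry no read totals, so the depth of each library is unknown, and the lists differed in length, from 911 reproducible PDS5A peaks in untreated KO cells to 16655 RAD21 peaks in treated WT cells. Joining overlapping peaks of all lists gave 54 sites at the loci, of which 25 held a reproducible peak. H3K27Ac was reproducible at 23 of them, RAD21 at 10 and PDS5A at 9, and all 9 PDS5A sites were RAD21 sites as well. Of the 54 sites, 28 held deposited H3K27Ac peaks and no peak of another antibody, and 6 of these 28 were among the 25. These counts pool the lists, so antibodies that share a site need not share a condition. The same counts were not made over the 87890 sites of the series, and nothing is read from them about the loci.

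Peaks of the 3 antibodies, IgG left out, were unevenly spread over the 5 genes. BCL2L1 had 57 reproducible peaks of 185 deposited in a window of 109.538 kb, MCL1 had 26 of 110 in 55.188 kb, BMF 25 of 90 in 70.995 kb, BCL2L11 13 of 39 in 97.532 kb, and BCL2 8 of 31 in 246.035 kb. The mix of antibodies differed as well. At BCL2L11, 6 of 8 RAD21 peaks and 5 of 7 PDS5A peaks were reproducible but 2 of 24 H3K27Ac peaks, while over the genome the shares were 35.5% (RAD21), 32.6% (PDS5A) and 26.6% (H3K27Ac). At MCL1 the order was the other way: 14 of 52 H3K27Ac peaks, 7 of 29 RAD21 peaks and 5 of 29 PDS5A peaks were reproducible. These are counts from single lists and overlapping sites, and the differences between genes were not tested.

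**Figure D1:**
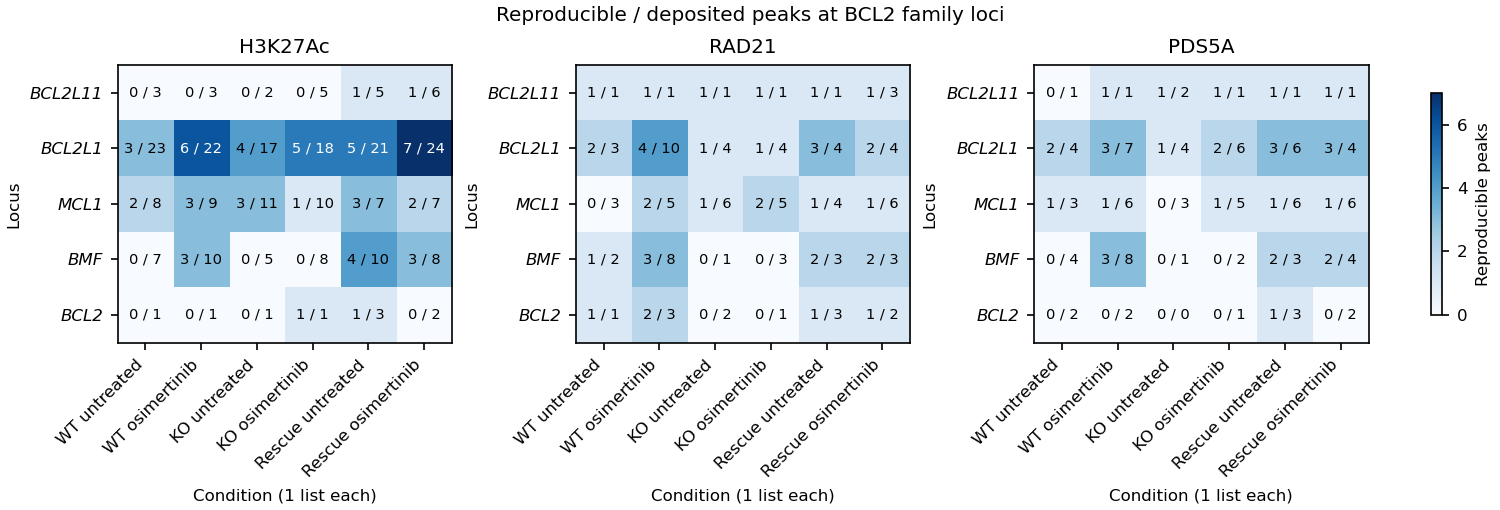
Reproducible peaks and, after the slash, deposited peaks at each locus (rows) in the 6 lists (columns) of H3K27Ac, RAD21 and PDS5A, with darker blue for more reproducible peaks. BMF has 0 reproducible peaks in each KO list of each antibody, and BCL2L11 has 1 reproducible RAD21 peak in each of the 6 lists.

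BCL2L11 lies on chromosome 2 from 111878491 to 111926022, and all 13 of its reproducible peaks lay on 1 site over its start, chr2:111877290-111881191. RAD21 was reproducible in all 3 genotypes at 1 of 13 untreated sites of the 5 loci, beside 9.95% in the series. Under osimertinib it was 3 of 22, beside 8.64%. The share of sites reproducible in all 6 lists was not counted over the series. At the 5 loci the BCL2L11 site was the only one where RAD21 was reproducible in all 6 lists. The −log10 p of RAD21 in the replicate listed first and second was 91.1 and 16.8 in untreated WT cells and 105.0 and 33.2 in treated WT cells. In KO cells it was 68.2 and 38.1 untreated and 27.3 and 34.3 treated, and in Rescue cells 78.1 and 54.5 untreated and 98.5 and 49.1 treated. All 12 replicate values were thus well above the floor of 3 that every deposited peak passes. These values are the authors' own, they depend on the depth of each library, and they rank peaks within a list only.

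PDS5A was reproducible over the BCL2L11 start in 4 of the 6 lists. It missed the limit in untreated WT cells, with 22.3 and 9.15, and in untreated KO cells, where the peak over the start had 4.18 and 37.0. A separate PDS5A peak of untreated KO cells, 1.86 kb into the gene on the same site, had 13.5 and 27.3 and was reproducible. H3K27Ac was reproducible there in Rescue cells alone, with 22.8 and 31.5 untreated and 29.3 and 28.8 treated. Untreated KO cells had a single H3K27Ac peak there with 18.7 and 5.34, and treated WT cells one with 5.69 and 29.6. The mark thus had a deposited peak on this site in every list, whether reproducible or not. The gene body held 18 deposited H3K27Ac peaks in the 6 lists and none was reproducible, beside 26.6% of all H3K27Ac peaks of the series. The site also held 5 IgG peaks, of untreated and treated WT and of treated KO cells, with values from 3.46 to 10.9. Leaving out every peak on an IgG peak removed all reproducible peaks of BCL2L11, so its count went to 0 for each antibody.

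**Figure D2:**
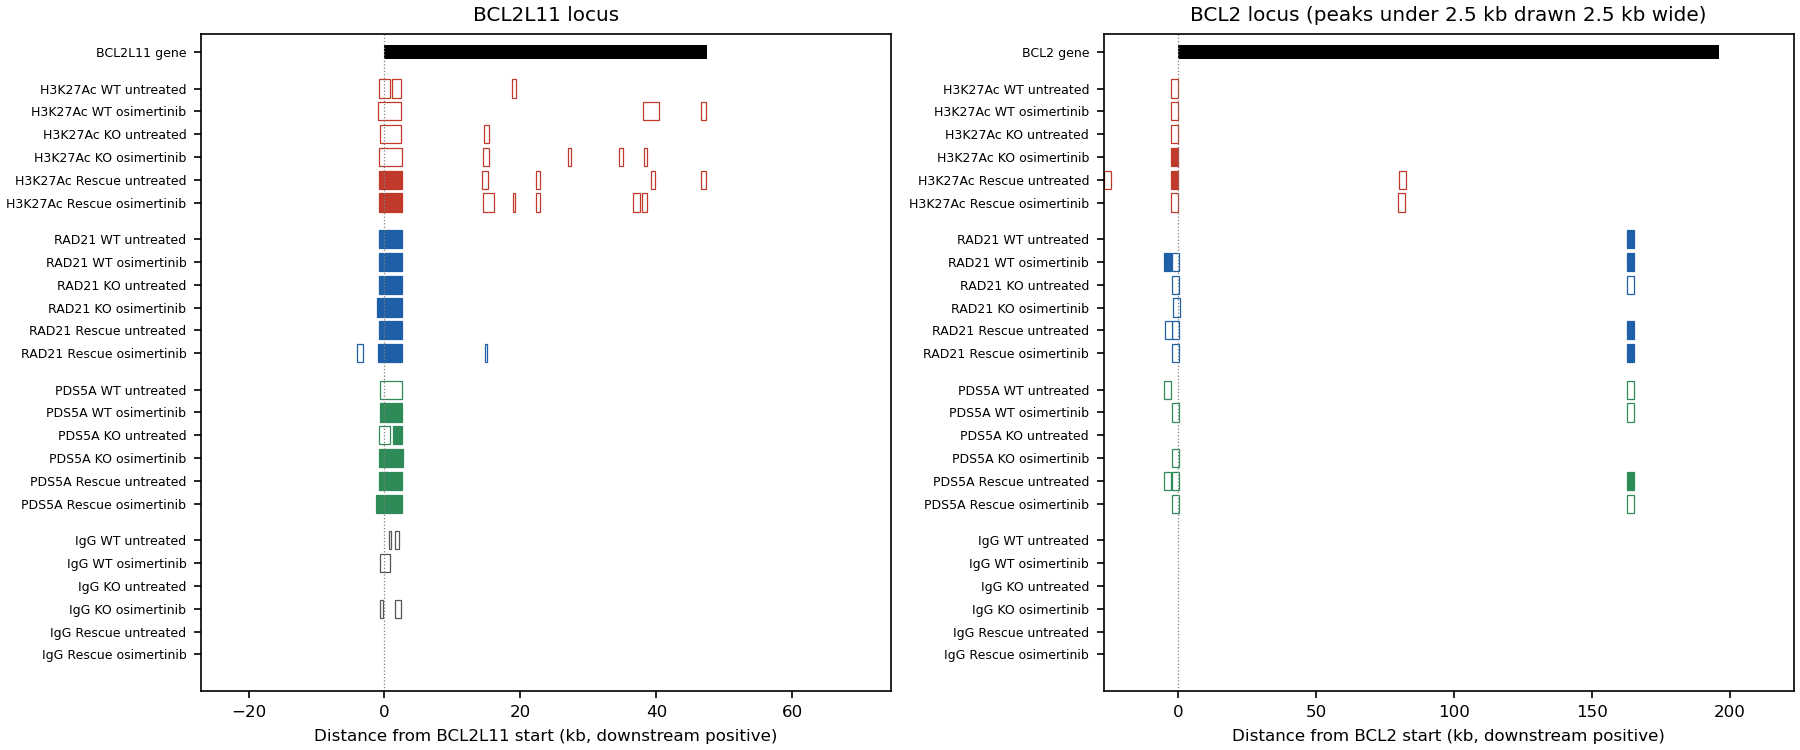
Peaks at BCL2L11 (left) and BCL2 (right) by distance from the gene start in kb, 1 row per list, filled where reproducible and open otherwise; the black bar is the gene. BCL2 peaks under 2.5 kb are drawn 2.5 kb wide so that they can be seen. RAD21 fills the BCL2L11 start in all 6 lists, and at BCL2 it fills a position deep in the gene in the WT and Rescue lists.

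BMF, the other BH3-only gene, lies on chromosome 15 from 40380091 to 40401085. It had 10 reproducible peaks of 39 deposited in the 6 WT lists of the 3 antibodies and 15 of 31 in the Rescue lists. In the 6 KO lists it had 0 of 20. The WT peaks came mostly from treated cells, where each antibody had 3 reproducible peaks. Without osimertinib, WT cells had 1 reproducible RAD21 peak at BMF (2 deposited). They had none for H3K27Ac (7 deposited) or PDS5A (4 deposited). Untreated WT lists thus differed little from untreated KO lists, while every Rescue list of either treatment had 2 or more. Over the whole series 22.6% of KO peaks were reproducible, beside 29.4% in WT and 37.4% in Rescue cells. BMF was the single locus of the 5 with no reproducible peak in KO cells, and this difference between genotypes was not tested. The BMF counts also depend on the limit. At a global IDR of 0.01 the 6 lists together kept 1 of 10 H3K27Ac peaks, 4 of 8 RAD21 peaks and 1 of 7 PDS5A peaks. Some KO peaks came near the limit. In treated KO cells an H3K27Ac peak 39.3 kb downstream of the start had a global IDR of 0.05071, and RAD21 over the start had 10.6 and 17.3.

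The site over the BMF start, chr15:40394766-40401929, carried RAD21 and PDS5A in WT and Rescue lists. Within it, RAD21 over the start itself was reproducible in untreated WT cells (47.6 and 10.1), untreated Rescue cells (21.0 and 18.2) and treated Rescue cells (42.3 and 15.5). In treated WT cells the start peak had 47.5 and 6.95 and was not reproducible, but a RAD21 peak 1.88 kb into the gene had 53.1 and 53.1. This was the BMF peak with the highest lower value of any RAD21 list, and it stood in the top 3.11% of its list. In untreated KO cells the RAD21 peak over the start had 8.73 and 11.7. The KO values were thus lower in the replicate listed first than in the other genotypes, and near or above theirs in the second.

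PDS5A at this site was reproducible in treated WT cells and in both Rescue lists. H3K27Ac had a deposited peak at or near the BMF start in all 6 lists without being reproducible in any. More than 1 kb into the gene, on the same site, the mark was reproducible in untreated Rescue cells. Its reproducible peaks lay inside and past the gene. The site about 10 kb into the gene, chr15:40390157-40391630, was reproducible in treated WT cells (16.4 and 20.1), untreated Rescue cells (21.5 and 16.9) and treated Rescue cells (13.0 and 12.6). In treated KO cells it had 7.74 and 12.1. It also carried RAD21 and PDS5A in treated WT cells, with 42.4 and 16.9 for RAD21. The strongest H3K27Ac peak of BMF, 33.4 kb downstream of the start in treated WT cells, had 19.3 and 28.2, and no other list held a peak at that site.

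Of the anti-apoptotic genes, BCL2L1 carried the most peaks. It lies on chromosome 20 from 30252255 to 30311792, on the minus strand. Its reproducible peaks fell into 3 positions shared by the antibodies and a series of H3K27Ac peaks within the gene, with 1 exception. This was an H3K27Ac peak 3.91 kb upstream of the start in treated WT cells, with 16.5 and 17.6. The first was a wide site that covered the start and the first 14.1 kb of the gene, chr20:30297693-30312456. The second lay 15.3 kb upstream of the start, on the side of TPX2, at chr20:30326254-30327809. The third lay past the far end of the gene, on the side of COX4I2, at chr20:30248911-30250796. These neighbours are named from the RefSeq gene order. For them and the neighbours of MCL1 named below, GRCh37 positions were not at hand. Whether a site lies over the start of a neighbouring gene was therefore not checked.

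The site past the end of BCL2L1 split by genotype in the same way for both cohesin antibodies and both treatments. RAD21 was reproducible in untreated WT cells (60.1 and 17.0), treated WT cells (61.2 and 22.5), untreated Rescue cells (27.3 and 21.2) and treated Rescue cells (43.7 and 17.7). In KO cells it had 3.11 and 14.2 untreated and 4.20 and 17.9 treated, and neither peak was reproducible. In both KO lists the low value was that of the replicate listed first, and the values of the second overlapped those of the other genotypes.

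PDS5A repeated that order. It was reproducible there in untreated WT cells (16.1 and 20.7), treated WT cells (27.8 and 17.3), untreated Rescue cells (29.4 and 25.3) and treated Rescue cells (53.6 and 30.1). In KO cells it had 3.12 and 14.5 untreated and 6.37 and 31.9 treated. H3K27Ac was reproducible at the site in both Rescue lists, had 4.36 and 13.8 in untreated KO cells, and came close to the limit in treated WT cells (9.53 and 17.1) and treated KO cells (11.1 and 15.2). No IgG peak lay on the site. In the whole series 5 of 49691 RAD21 or PDS5A sites, 0.0101%, had both proteins reproducible in these 4 conditions and neither in KO cells, and 1 of them was among the 26 such sites of the 5 loci. This combination was singled out after its values were seen, and it does not hold at a global IDR of 0.01, where RAD21 in untreated Rescue cells (−log10 global IDR 1.95) is no longer called.

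**Figure D3:**
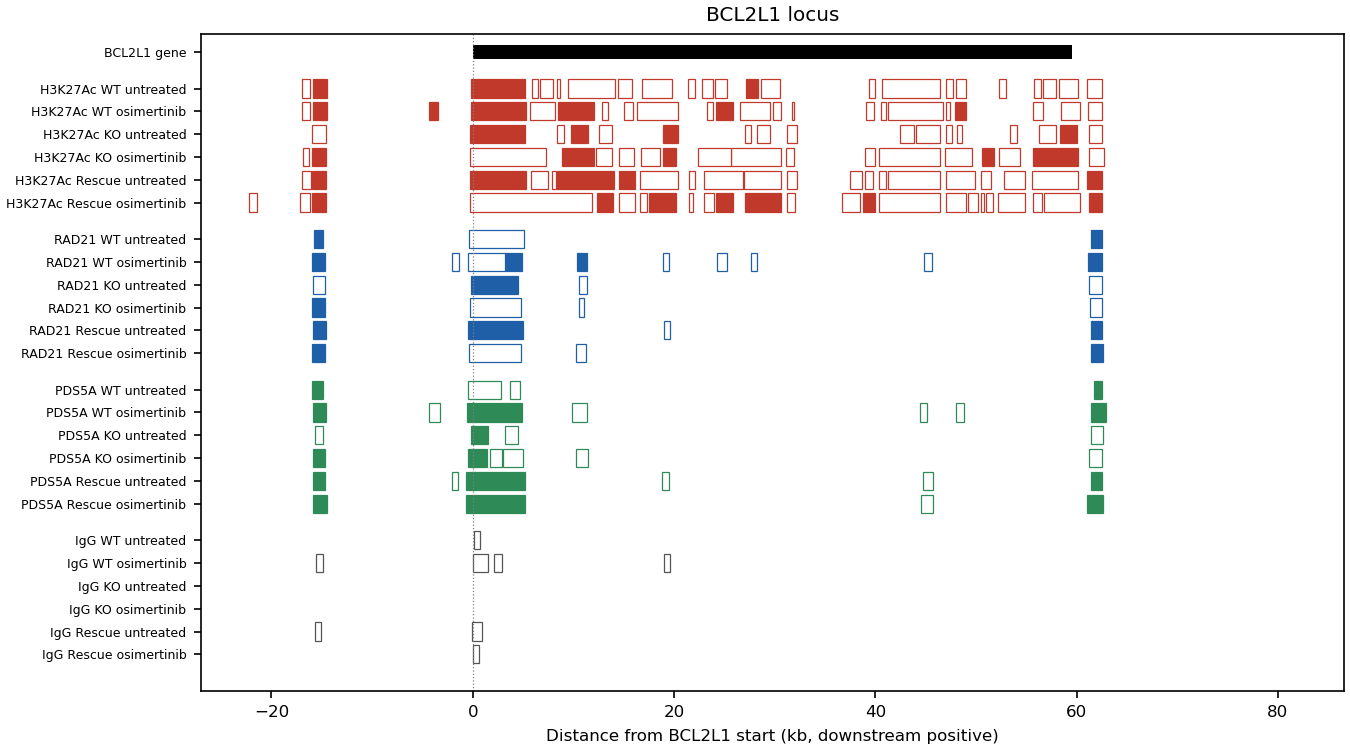
Peaks at BCL2L1 by distance from the gene start in kb, 1 row per list, filled where reproducible and open otherwise; the black bar is the gene. At the right, past the gene end, RAD21 and PDS5A are filled in the WT and Rescue lists and open in the 4 KO lists, and IgG has no peak.

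The upstream site of BCL2L1 carried all 3 antibodies. Each of H3K27Ac, RAD21 and PDS5A was reproducible there in 5 of 6 lists, and the exception was untreated KO cells for all 3. In those cells H3K27Ac had 20.0 and 9.98, RAD21 21.5 and 7.11, and PDS5A 10.1 and 13.1. Treated KO cells had reproducible peaks there, with RAD21 at 18.5 and 25.2, PDS5A at 24.9 and 23.6, and H3K27Ac at 29.5 and 23.1. The RAD21 peak of BCL2L1 with the highest lower value was here, in treated WT cells, with 49.2 and 31.6. IgG peaks of treated WT and untreated Rescue cells lay on this site, the largest value being 7.46.

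Over the BCL2L1 start, H3K27Ac formed peaks more than 5 kb wide that were reproducible in untreated WT (60.1 and 55.6), treated WT (26.5 and 34.4), untreated KO (21.3 and 28.5) and untreated Rescue cells (64.9 and 61.1). The last of these stood in the top 0.532% of its list. With the H3K27Ac peaks farther into the same site, it was the 1 site of the 5 loci with a reproducible H3K27Ac peak in all 6 lists. The share of such sites in the series was not counted. H3K27Ac was reproducible in all 3 genotypes at 2 of 38 untreated sites (6.94% in the series) and 2 of 45 treated sites (6.16%). PDS5A over the start was reproducible in 5 of 6 lists, with 143 and 95.4 in treated WT cells, in the top 0.449% of that list. RAD21 over the start was reproducible in untreated KO cells (23.3 and 100.0) and untreated Rescue cells (26.4 and 12.9). Under osimertinib RAD21 peaks lay over the start in both genotypes, with 60.7 and 7.83 in KO and 291 and 8.81 in Rescue cells, and were not reproducible. Treated WT cells had reproducible RAD21 peaks farther into the site, 4.08 kb (33.6 and 22.6) and 10.9 kb (20.0 and 13.0) from the start, while their peak over the start was not reproducible. IgG peaks of both WT and both Rescue lists lay here, with values up to 8.40.

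Inside BCL2L1, 18 of 100 deposited H3K27Ac peaks of the gene body were reproducible, beside 26.6% of all H3K27Ac peaks of the series. At 3 sites the mark was reproducible in KO cells and in no other genotype under the same treatment. They lay 55.6 to 60.4 kb from the start (KO, both treatments), 50.5 to 51.8 kb (KO, treated) and 16.3 to 20.4 kb (KO, untreated). At the first of these the KO values were 25.6 and 20.3 untreated and 12.5 and 27.4 treated, and in treated Rescue cells the largest peak had 13.5 and 33.5 without being reproducible. The treated KO peak was only just inside the limit, at a global IDR of 0.0476. A treated WT peak there had 13.5 and 13.2 and was not reproducible. All 3 sites held deposited H3K27Ac peaks of Rescue cells. The reverse, WT and Rescue without KO, held at 1 H3K27Ac site within the gene under osimertinib, 22.3 to 30.7 kb from the start.

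MCL1 lies on chromosome 1 from 150547027 to 150552214, on the minus strand, and its start was marked by acetylation. H3K27Ac was reproducible there, at chr1:150549569-150553106, in 5 of 6 lists. Its values were 20.5 and 32.6 in untreated WT, 15.2 and 20.1 in treated WT, 41.7 and 15.9 in untreated KO, 32.3 and 38.6 in untreated Rescue and 55.8 and 52.8 in treated Rescue cells. Treated KO cells had 4.55 and 16.8. RAD21 had a deposited peak at the MCL1 start in all 6 lists and PDS5A in 4, and none was reproducible. No IgG peak lay on the start.

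The reproducible cohesin peaks of MCL1 lay outside the gene, on the side of ADAMTSL4. The site chr1:150530199-150537786, 14.4 to 22.0 kb downstream of the start, held the highest-ranked RAD21 and PDS5A peaks of all 5 loci. RAD21 there had 212 and 143 in treated WT cells, which stood in the top 0.209% of the list. It was also reproducible in untreated KO cells (100.0 and 61.8) and treated KO cells (27.5 and 90.9). In untreated WT cells it had 10.0 and 5.86. In Rescue cells it had 138 and 8.71 untreated and 312 and 5.38 treated, so the replicates differed widely there and the peaks were not reproducible.

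PDS5A at this site was reproducible in untreated WT cells (45.9 and 39.4), treated KO cells (12.1 and 90.7), untreated Rescue cells (76.5 and 127) and treated Rescue cells (221 and 115). The last stood in the top 0.291% of its list. In treated WT cells PDS5A had 92.8 and 11.3 and was not reproducible. Untreated KO cells had a PDS5A peak there with a lower replicate value of 18.2. It stood in the top 3.24% of its list and was not reproducible either. RAD21 and PDS5A were thus reproducible together in 1 of the 6 conditions at the site where both ranked highest. H3K27Ac was reproducible there in untreated WT (48.5 and 37.3) and untreated KO cells (29.7 and 26.1), and in neither under osimertinib, where single peaks had 21.6 and 10.5 in WT and 44.5 and 8.23 in KO cells. Deposited peaks of all 3 antibodies lay on the site in all 6 lists. IgG peaks of treated WT (8.17 and 6.57) and untreated KO cells (4.12 and 3.01) lay on it as well.

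Farther downstream of MCL1, at chr1:150520946-150527440, RAD21 was reproducible under osimertinib in WT and KO cells and in neither without it, and in Rescue cells in both. The positions differed within the site. In treated WT cells the reproducible peak lay 27.4 kb from the start (21.8 and 18.1), and in treated KO cells 30.4 kb from it (13.1 and 16.7). In untreated KO cells the peak at 30.4 kb fell just outside the limit, at a −log10 global IDR of 1.30 beside the limit of 1.301. Upstream of MCL1, 24.5 to 26.0 kb from the start toward ENSA, H3K27Ac was reproducible in treated WT and both Rescue lists and in no KO list.

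**Figure D4:**
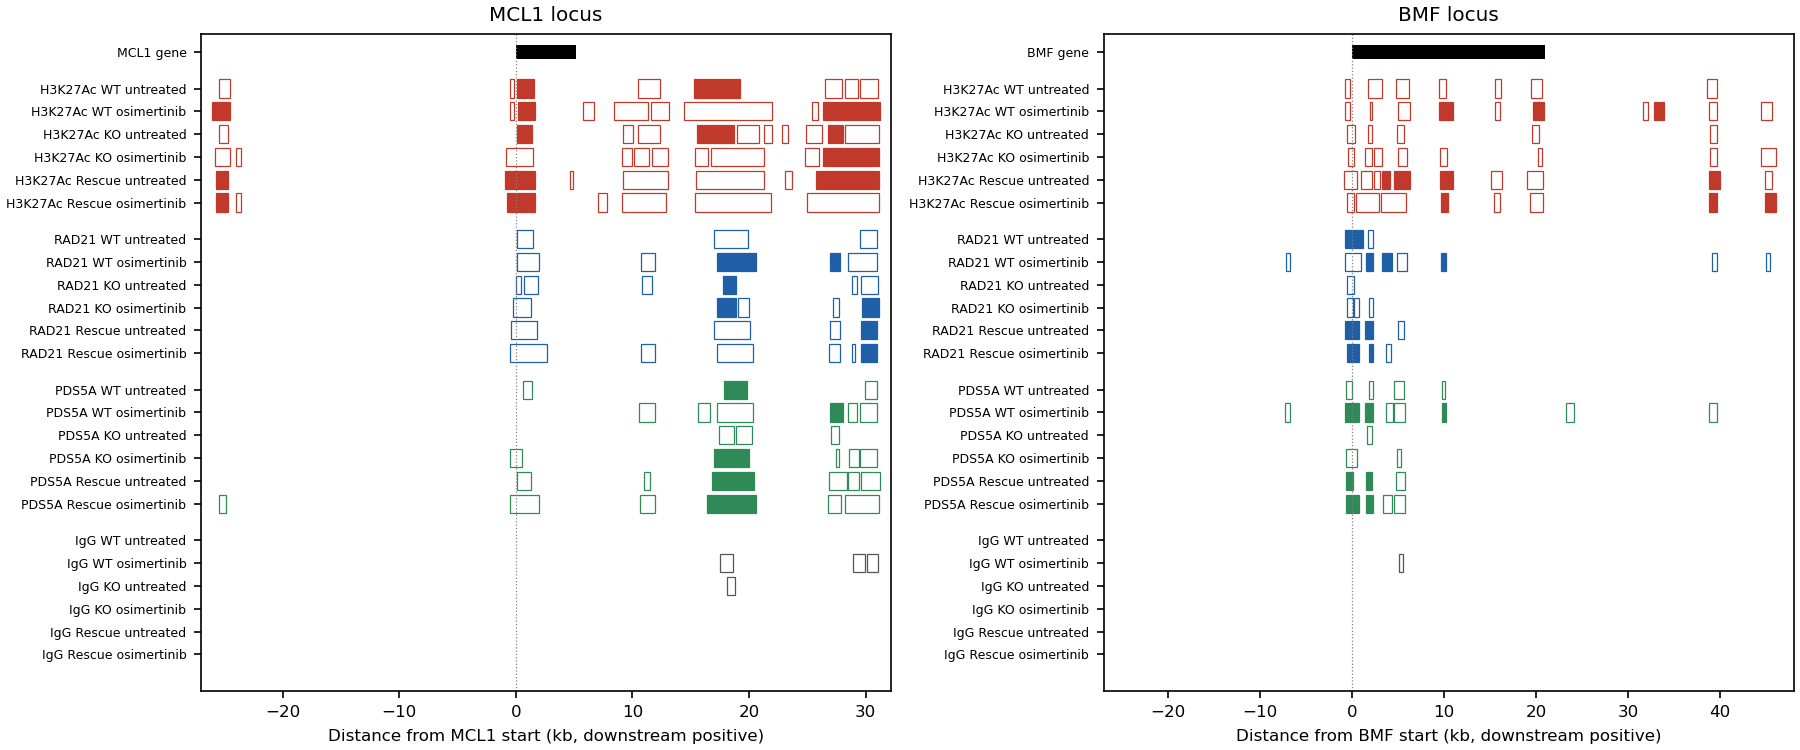
Peaks at MCL1 (left) and BMF (right) by distance from the gene start in kb, 1 row per list, filled where reproducible and open otherwise; the black bar is the gene. At MCL1 acetylation fills the start while RAD21 and PDS5A fill positions more than 15 kb downstream, and at BMF every KO row is open.

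BCL2, on chromosome 18 from 60790579 to 60986613, had the fewest peaks in the widest window, and no IgG peak. Near its start, at chr18:60986475-60988681, H3K27Ac was reproducible in treated KO cells (21.1 and 13.3) and untreated Rescue cells (11.3 and 14.2) only. The other 4 lists had H3K27Ac peaks there with values from 4.38 to 11.2. RAD21 at the start had a peak in 5 lists and was reproducible in none, and a RAD21 peak 3.74 kb upstream was reproducible in treated WT cells (27.2 and 10.4).

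The cohesin site of BCL2 lay deep in the gene, 163 to 164 kb from the start, at chr18:60822461-60823120. RAD21 was reproducible there in untreated WT (33.3 and 8.81), treated WT (33.2 and 15.6), untreated Rescue (32.1 and 21.0) and treated Rescue cells (17.1 and 16.8). Untreated KO cells had a peak with 19.7 and 7.43, and treated KO cells had none. The value of untreated KO cells in the replicate listed first lay within the range of the other lists. PDS5A was reproducible there in untreated Rescue cells alone (19.9 and 21.3). Treated Rescue cells had nearby values, 18.0 and 18.8, and were not reproducible. The same held for treated WT cells (16.6 and 10.1) and untreated WT cells (7.25 and 4.85). On this site the KO lists held no PDS5A peak. No H3K27Ac peak lay on this site in any list.

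Across the loci, RAD21 was compared between untreated WT and KO cells site by site. Of 11 sites with a RAD21 peak in either list, 4 were reproducible in WT and not in KO cells, beside 4.11% of 20551 sites in the series. For PDS5A the count was 3 of 11, beside 6.95%, and for H3K27Ac 2 of 29, beside 6.92%. Under osimertinib it was 6 of 20 for RAD21 (33.3% in the series), 4 of 18 for PDS5A (26.7%) and 8 of 37 for H3K27Ac (10.6%). Sites also went the other way. In untreated cells 2 of 11 RAD21 sites were reproducible in KO and not in WT cells (12% in the series), as were 2 of 11 PDS5A sites (1.6%) and 3 of 29 H3K27Ac sites (8.43%). Under osimertinib these were 0 of 20 for RAD21 (1.29%), 1 of 18 for PDS5A (2.06%) and 4 of 37 for H3K27Ac (7.28%). The untreated KO list of RAD21 was longer than the WT list, with 5369 reproducible RAD21 peaks against 3691. The 4 untreated RAD21 sites were the upstream and far sites of BCL2L1, the BMF start and the intragenic site of BCL2, and all 4 were reproducible in untreated Rescue cells. They made 4 of 13 sites with that order of the 3 genotypes, beside 2.39% of all. The count does not hold at other limits: it was 0 at a global IDR of 0.01 and 0 over every deposited peak, since KO cells had a deposited RAD21 peak at each of the 4 sites. Without peaks on IgG peaks it was 3, beside 1.26% of all sites.

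Under osimertinib the same count was 3 of 22 RAD21 sites, beside 12.4% of all, and 2 of 19 PDS5A sites, beside 12.6%. For both cohesin antibodies the share in treated cells was thus close to the genome's. For PDS5A in untreated cells it was 3 of 16, beside 3.09%, at both outer sites of BCL2L1 and the downstream site of MCL1. At the MCL1 site untreated KO cells held a PDS5A peak in the top 3.24% of their list that was not reproducible. Over every deposited peak the PDS5A count was again 3 of 16, but beside 20.6% of all sites, and at a global IDR of 0.01 it was 1, beside 1.03%. H3K27Ac had the order at 1 of 38 untreated sites, beside 3.43%, and 4 of 45 treated sites, beside 3.12%. The sites reproducible in KO cells alone numbered 2 of 38 and 3 of 45 for H3K27Ac, beside 1.08% and 1.84% of all sites, and 1 of 13 for untreated RAD21, beside 2.06%. Comparisons of KO with WT and of Rescue with KO use the same KO lists, and each condition has 1 list, so none of these shares was tested.

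With the 3 antibodies and both treatments pooled, WT cells had 45, KO cells 27 and Rescue cells 57 reproducible peaks at the 5 loci, which is 9.0, 9.39 and 7.76 for every 10000 reproducible peaks of their lists. Single lists differed more, as with PDS5A, where the loci held 2 of 911 reproducible peaks in untreated KO and 8 of 14049 in untreated Rescue cells. The PDS5A count in WT cells went from 3 untreated to 8 under osimertinib, and the RAD21 and H3K27Ac counts both from 5 to 12. In KO cells they went from 2 to 4 (PDS5A), from 3 to 4 (RAD21) and from 7 to 7 (H3K27Ac), and in Rescue cells from 8 to 7, from 8 to 7 and from 14 to 13. The share of all peaks that was reproducible, untreated and then treated, was 12.2% and 36.1% for PDS5A in WT, 9.87% and 22.3% in KO, and 41.8% and 42.2% in Rescue lists. For RAD21 it was 23.8% and 42.9% in WT, 28.2% and 24.7% in KO, and 37.2% and 42.2% in Rescue cells. For H3K27Ac it was 22.6% and 23.1%, 23.2% and 21.7%, and 36.6% and 29.3%. The rise at the loci in WT cells thus went with longer lists and, for both cohesin antibodies, with larger reproducible shares.

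Site by site, osimertinib-treated WT cells gained reproducible PDS5A at 5 of 19 sites, beside 32.5% of sites in the series, and RAD21 at 5 of 20, beside 34.9%. H3K27Ac was gained at 7 of 34 sites, beside 15.7%. In KO cells the gains were 2 of 9 for PDS5A (17.6% in the series), 2 of 11 for RAD21 (6.09%) and 3 of 32 for H3K27Ac (12%). Rescue cells gained H3K27Ac at 4 of 42 sites (7.29%) and neither PDS5A (0 of 16, with 6.82% in the series) nor RAD21 (0 of 15, with 13.6%). The sites lost under osimertinib in WT cells were 1 of 19 for PDS5A (0.69%), 0 of 20 for RAD21 (1.12%) and 1 of 34 for H3K27Ac (4.08%). In KO cells they were 0 of 9 (0.821%), 1 of 11 (10.6%) and 2 of 32 (4.09%), and in Rescue cells 1 of 16 (14.0%), 1 of 15 (7.13%) and 4 of 42 (10.1%), in the same order. With 9 to 42 sites per comparison, 1 or 2 sites move these shares widely, and nothing is read from them about the loci.

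The change under osimertinib was averaged over the genotypes as the log2 ratio of treated to untreated counts, with 1 added to each. PDS5A gave 0.58 ± 0.68, RAD21 gave 0.42 ± 0.65 and H3K27Ac gave 0.34 ± 0.67 (SD, n = 3 genotypes). The ratio was above 0 in 2 genotypes for PDS5A and RAD21 and in 1 for H3K27Ac. Scaled to 10000 reproducible peaks per list, all 3 mean ratios changed sign, to -0.77, -0.20 and -0.11. An exact permutation test that flips signs over the 3 genotypes, two-sided, of the unscaled ratios returned p = 0.5, 0.5 and 1.0 in that order, or 0.75, 0.75 and 1.0 with Benjamini-Hochberg adjustment for 3 antibodies. With 3 genotypes p cannot fall below 0.25.

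KO against WT gave mean log2 ratios over the 2 treatments of -0.63 ± 0.31 (PDS5A), -0.98 ± 0.56 (RAD21) and -0.14 ± 0.79 (H3K27Ac; SD, n = 2). Rescue against KO gave 1.13 ± 0.64, 0.92 ± 0.35 and 0.86 ± 0.07 in the same order, with both treatments above 0 for each antibody. These have no test. Scaled to the length of the lists, the KO ratio turned to 0.45 for PDS5A and was -0.42 for RAD21 and -0.059 for H3K27Ac, and the Rescue ratio turned to -1.19 for PDS5A and -0.066 for H3K27Ac and was 0.042 for RAD21.

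At some of these peaks the replicates of 1 list differed widely. Among RAD21 peaks, 7 of 98 had a −log10 p of at least 50 in one replicate and under 10 in the other, beside 0.896% of all RAD21 peaks. The limits of 50 and 10 were set after the values were seen. Of the 7, 4 lay over the BCL2L1 start, where untreated WT cells had 325 and 7.61, treated WT cells 334 and 5.06, treated KO cells 60.7 and 7.83, and treated Rescue cells 291 and 8.81. Another 2 were the Rescue peaks downstream of MCL1 given above, and 1 lay within BMF in untreated WT cells (57.7 and 7.61). In all 7 the high value was that of the replicate listed first. For H3K27Ac 1 of 258 peaks and for PDS5A 1 of 99 peaks split in this way, beside 0.285% and 0.707% of all.

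**Figure D5:**
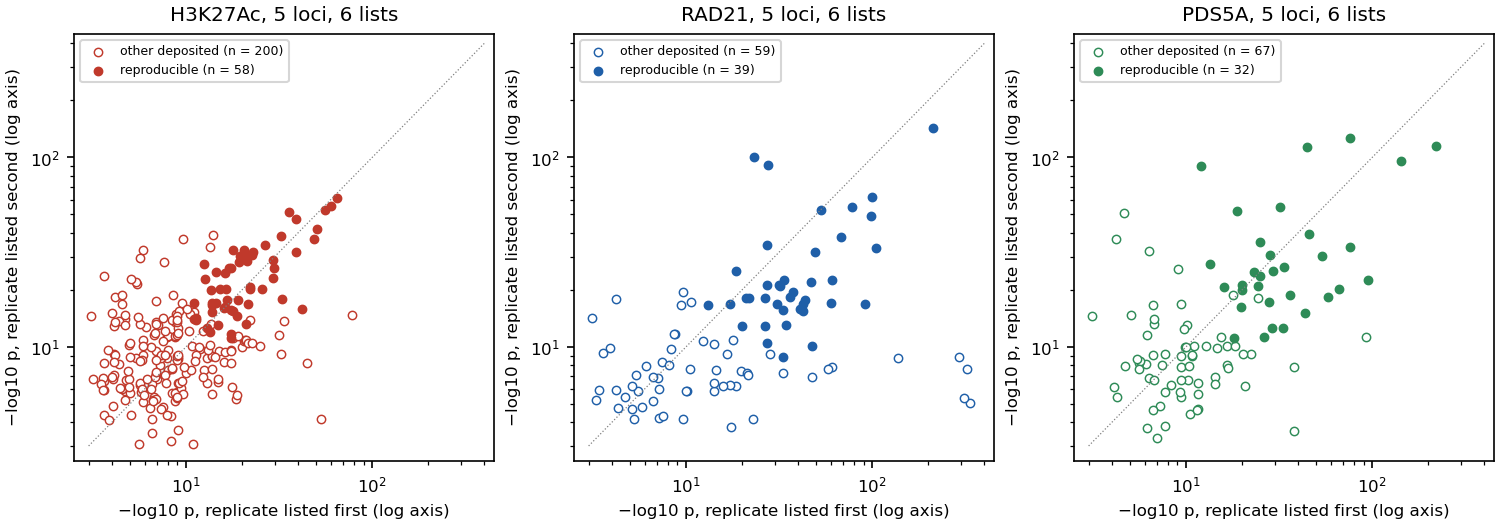
Each point is a deposited peak at the 5 loci, with the −log10 p of the replicate listed first on the x axis and second on the y axis (both log axes), filled where reproducible; the dotted line marks equal values. RAD21 has a group of open points at the lower right, with values up to 334 in one replicate and under 10 in the other.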

How the data were processed

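CUT&RUN peak lists of H3K27Ac, RAD21, PDS5A and IgG from PC9 cells were used, and 12 H2A samples were not used here. The submitters' processing notes name MACS2 2.2.7.1, Bowtie2 2.4.2, deepTools 3.5.1, bedtools 2.30, SAMtools 1.16, FastQC and Trimmomatic, and the build GRCh37. The MACS2 threshold, its control and the IDR version are not given in the sources used here. The values deposited by the authors are −log10 p of each replicate, at least 3, and −log10 of the global IDR for peaks matched in both replicates. The labels planned 20 M paired-end reads per library, and actual depth is unknown. No source says that the 2 replicates were separate cultures.

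Peaks on chromosomes 1 to 22 and X were read with Python 3.11.15, numpy 2.4.6, pandas 2.3.3 and scipy 1.17.1, and drawn with matplotlib 3.10.9. Peaks sharing 1 base or more, from all 24 lists, were joined into sites. Distances run from the outermost gene start to a peak's centre or a site's edges. Sites were named over gene starts (within 1 kb), where an antibody had its highest lower replicate value, where 2 or more genotypes gained or lost a peak, and where KO differed from both other genotypes. An IgG peak was a deposited one of any condition. The joining was tested on simulated data. The members and lists were chosen with earlier results of these data known. Exons, introns and other BCL2 family genes were not analysed here.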

Additional observations from a re-analysis of the deposited data

Results flagged for a closer look

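Under osimertinib the counts of reproducible peaks at the 5 loci moved in opposite directions in some genotypes, each of which has 1 list per condition. The differences were not tested. For H3K27Ac, WT went from 5 to 12 and Rescue from 14 to 13, changes that differ by 8 peaks. For RAD21, WT went from 5 to 12 and Rescue from 8 to 7, which also differ by 8, while KO went from 3 to 4, which differs from Rescue by 2. For PDS5A, WT went from 3 to 8 and Rescue from 8 to 7, which differ by 6, and KO went from 2 to 4, which differs from Rescue by 3. The reproducible peaks of the whole lists moved as well: in WT cells from 5108 to 10214 for H3K27Ac, from 3691 to 16655 for RAD21 and from 1757 to 12573 for PDS5A. Their part in the counts at the loci was not tested.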

How the results depend on the processing

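The 9 comparisons of peak counts were recomputed under 13 alternatives, 117 values in all. Of these, 84 were counted as unchanged, 24 as moved beyond the spread of the main value and 9 as changed in direction. The 84 include PDS5A under osimertinib with covered bases in place of peak counts. That value was 1.28, outside the SD of the main value, 0.58 ± 0.68. The values below are mean log2 ratios, and their cause was not tested. Scaling to 10000 reproducible peaks per list reversed osimertinib against untreated (H3K27Ac -0.11, RAD21 -0.20, PDS5A -0.77), Rescue against KO (H3K27Ac -0.066, PDS5A -1.19) and PDS5A in KO against WT (0.45), and left RAD21 at -0.42 for KO against WT and 0.042 for Rescue against KO. A global IDR of 0.01 reversed H3K27Ac under osimertinib (-0.35) and gave 0.50 for RAD21 in Rescue against KO and -0.21 for PDS5A in KO against WT. Genes without flanks reversed PDS5A in KO against WT (0.29) and gave 0.72 for H3K27Ac in Rescue against KO, and leaving out BMF reversed H3K27Ac in KO against WT (0.047). With peaks on IgG peaks left out, KO against WT was -2.66 for RAD21 and -1.79 for PDS5A, and Rescue against KO 1.07, 2.32 and 2.16 for H3K27Ac, RAD21 and PDS5A. Every deposited peak gave 0.25 (H3K27Ac) and 0.22 (RAD21) for Rescue against KO and -0.23 for RAD21 in KO against WT, and covered bases gave 0.75, 0.50 and -0.40. Flanks of 50 kb gave 1.06 for H3K27Ac in Rescue against KO. Leaving out single genes gave, for H3K27Ac in Rescue against KO, 0.75 (BCL2L11), 1.27 (BCL2L1), 1.02 (MCL1) and 0.46 (BMF), for RAD21 1.32 (MCL1) and 0.54 (BMF), and -1.0 for PDS5A in KO against WT (BCL2L11).

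Sites reproducible in untreated WT and Rescue but not KO cells were recounted under alternatives chosen after seeing the data. RAD21 had 4 (2.39% of all sites), but 0 at a global IDR of 0.01 (0.997%) and 0 over every deposited peak (6.54%). Without peaks on IgG peaks RAD21 had 3 (1.26%). PDS5A had 3 (3.09%), but 1 at a global IDR of 0.01 (1.03%) and 1 without peaks on IgG peaks (1.48%), and its 3 over every deposited peak stood beside 20.6% of all sites. Counts per gene were recomputed after seeing the data as well. No paired analysis was possible because each list holds only peaks joined from both replicates, and for the same reason no replicate could be left out. Depth per library is unknown, so a missing peak is not evidence that a protein is absent.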
